A study of Mus musculus with 12 samples.

Results

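The Ikaros family comprises 5 mouse genes, Ikzf1 to Ikzf5, and all 5 were found among the 51826 genes counted in 12 B cell precursor lines. The members were taken by gene symbol, without regard to their values. Each line was grown from C57BL/6 bone marrow, carries a GFP-marked retrovirus and is labelled as pro-/pre-B cells. The 6 EV lines received the empty pMIG vector, stayed in interleukin 7 (IL7) and were sorted for GFP. The 6 BCR-ABL1 lines received the fusion kinase of Philadelphia chromosome-positive leukemia and were deprived of IL7 for 1 week, after 7 days of marrow culture and 48 h after transduction with IL7. Both conditions hold 3 lines, A to C, from each of the same 2 mice, so that EV 2C is the third EV line of mouse 2. BCR-ABL1, IL7 withdrawal and the absence of a GFP sort coincided in these lines, and their effects cannot be told apart. The ages of the mice were not given.

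Ikaros proteins bind DNA through zinc fingers near their N terminus and pair with each other through zinc fingers at their C terminus. Ikaros (Ikzf1) and Aiolos (Ikzf3) recruit the NuRD chromatin remodeling complex and other corepressors, and in pre-B cells they restrain proliferation and the genes of the surrogate light chain while the cells mature. IKZF1 is often deleted in human BCR-ABL1-positive leukemia. Helios (Ikzf2) and Eos (Ikzf4) are best known from regulatory T cells, and Pegasus (Ikzf5) is the most divergent member.

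The counts summed to between 34791011 and 66011225 per line. They are given as CPM, that is, scaled by TMM to a common library size. The sum of the 10 B lineage markers was 7034 to 10513 CPM (EV) and 5442 to 6316 CPM (BCR-ABL1). By the test given below, 2 of the 10, Ighm and Il7r, were called lower, where 6.46% of all tested genes were. Of the 10 myeloid markers, which summed to at most 2.15 CPM, 4 had no more than 3 counts in any line, as had 4 of 6 mast cell and basophil markers (at most 0.429 CPM together). The 10 T and NK markers summed to between 67.4 and 146 CPM, mostly Lck (61.4 to 123 CPM) and, in EV lines, Trac (9.99 to 41.1 CPM, against 0.213 to 1.34 CPM in BCR-ABL1 lines). Trac was called lower, whereas Lck and Klrb1c (0.0289 to 1.07 against 0.353 to 3.68 CPM) were not called. Log2 differences of Lck were 0.57 in mouse 1 and -0.35 in mouse 2 (interaction FDR 0.0312 in edgeR). For Klrb1c they were 4.26 and -0.94 (interaction FDR 0.000306 in edgeR), and in mouse 1 alone it was called higher. That interaction test passed for 16.7% of all tested genes. Of the defining T cell genes, Cd3d, like Trac, was called lower (0.234 to 0.644 CPM in EV lines against 0.0304 to 0.116, at most 34 counts). Cd3d passed the filter on low counts only through its EV lines, so its fall follows in part from that filter. Cd3g, not tested, had at most 14 counts and did not overlap (0.113 to 0.215 CPM in EV lines against 0 to 0.0170), and Cd3e, Cd4 and Cd8a never exceeded 7 counts. The 7 erythroid markers summed to 1.26 to 6.79 CPM in EV lines against 5.94 to 12.7 CPM in BCR-ABL1 lines, nearly all of it Hbb-bt, which was called higher (0.974 to 6.50 against 5.71 to 12.4 CPM, log2 fold change 1.72, FDR 0.0303 by glmTreat), while Hba-a1 and Hba-a2 were at 0 throughout. The part of these cell markers in the results was not tested. The 8 stromal markers summed to 32.7 to 172 CPM and 82.1 to 102 CPM, nearly all of it Pecam1. Among the EV lines, EV 2A had at least 1 count for 69.7% of all genes against 39.0% to 55.0% in the other lines, and EV 2C differed from the other EV lines of its mouse by chi-square statistics of 325 and 489 per gene, against 10.0 to 87.1 for every other pair of replicate lines. Results of the members, and calls among the genes that Ikaros represses or activates, were also obtained without these lines. For genes other than the members, differences between the mice were not refitted without them.

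Genes were called when the change between BCR-ABL1 and EV lines exceeded 1.5-fold by edgeR's glmTreat at a Benjamini-Hochberg adjusted p (FDR) under 0.05. Of the 5 Ikaros genes, 4 had enough counts to be tested, and 1 of them, Ikzf4, rose while 0 fell. The same counts were found at an unadjusted p under 0.05, by the likelihood ratio fit and by DESeq2. Over all 15038 tested genes, 5.98% rose, 6.46% fell and 12.4% were called in either direction. With mouse as a replicate block, 14.6% of all genes were called, and of the members again Ikzf4 alone. Against no change at all, a less demanding test that called 48.5% of all genes, 2 of the 4 passed, Ikzf3 and Ikzf4, and the 2 others did not. The values of both were also without overlap between the conditions, as were those of 25.6% of all tested genes. The plot of all members by line shows these separations. Ikzf4 passed the filter on low counts only through its BCR-ABL1 lines, so its rise and lack of overlap follow in part from that filter. Fitted without the filter, Ikzf4 had a log2 fold change of 3.00 (FDR 0.00647 by glmTreat).

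**Figure D1:**
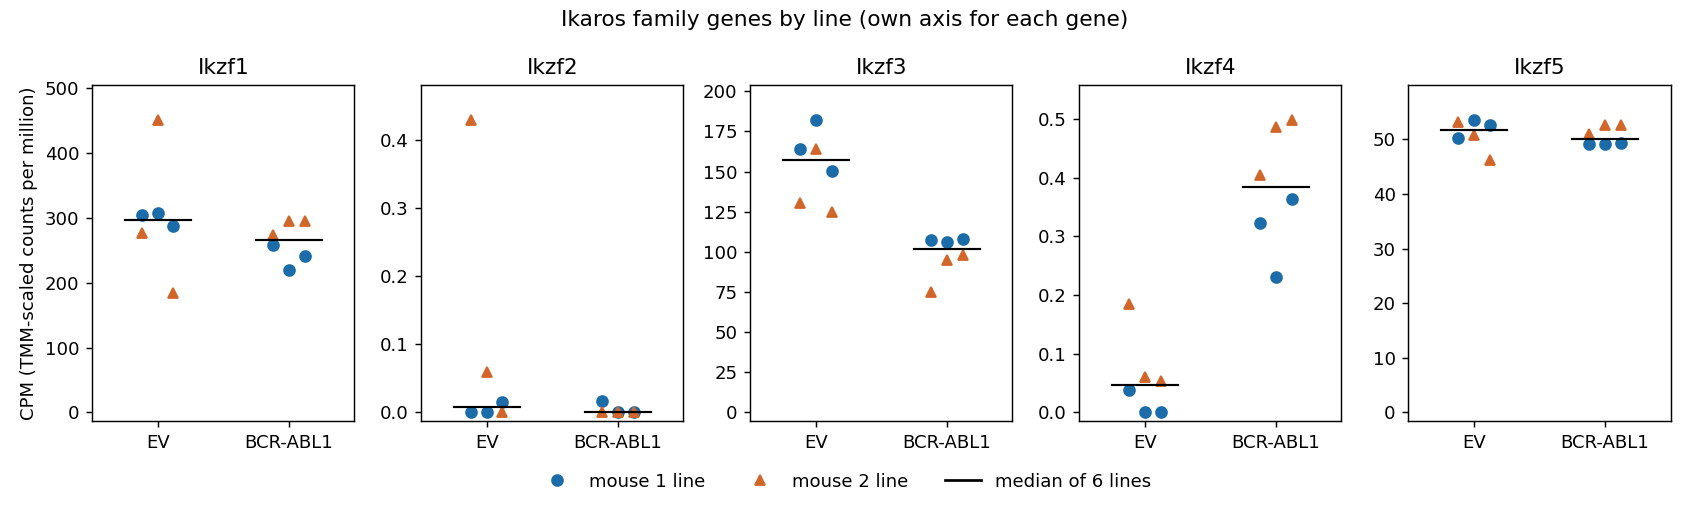
CPM of Ikzf1 to Ikzf5 (vertical axes, scaled separately for each gene) in the 6 EV and 6 BCR-ABL1 lines. Circles are lines of mouse 1, triangles lines of mouse 2 and bars the median of 6 lines. Ikzf3 (75.1 to 108 CPM in BCR-ABL1 lines, 125 to 182 in EV lines) and Ikzf4 (0.230 to 0.498 against 0 to 0.184) separate without overlap, whereas Ikzf1, Ikzf2 and Ikzf5 overlap.

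Per kilobase of merged exons (RPKM, computed from the CPM), the most abundant member was Ikzf1, with 32.0 to 78.0 in EV lines and 37.9 to 51.2 in BCR-ABL1 lines. Ikzf3 followed with 14.2 to 20.8 and 8.58 to 12.3 RPKM, then Ikzf5 with 8.08 to 9.36 and 8.58 to 9.21 RPKM. In EV lines the ranges of these 3 genes were separate. In BCR-ABL1 lines those of Ikzf3 and Ikzf5 met, and in BCR-ABL1 2A Ikzf5 stood above Ikzf3, with 8.90 against 8.58 RPKM. The order Ikzf1, Ikzf3, Ikzf5 held in the 11 other lines, and in all 12 when the longest transcript was used as the length. Of the 5721 exon bases of Ikzf5, 4652 overlap exons of Pstk on the opposite strand. The RPKM of Ikzf5 and its place in the order therefore depend on whether counting used the strand, which is not given. Far lower were Ikzf4, at 0 to 0.0307 RPKM in EV lines and 0.0383 to 0.0831 RPKM in BCR-ABL1 lines, and Ikzf2, at no more than 0.0370 and 0.00146 RPKM. Ikzf4 exceeded Ikzf2 in all 6 BCR-ABL1 lines, whereas of the EV lines 3 had more Ikzf4, 2 had more Ikzf2 and 1 had neither.

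**Figure D2:**
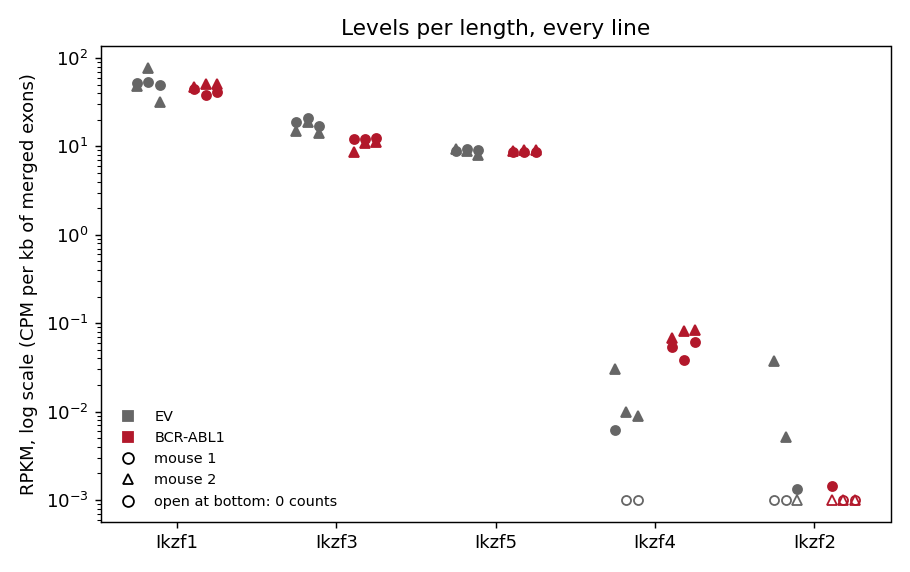
Level of each Ikaros gene in RPKM (CPM per kilobase of merged exons, log axis) in the 12 lines, by condition. Ikzf1 lies highest (32.0 to 78.0 RPKM in EV lines), followed by Ikzf3 and Ikzf5, and Ikzf4 and Ikzf2 reach at most 0.0831 RPKM.

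Ikaros, the founding member, did not pass the test in either direction. Ikzf1 (ENSMUSG00000018654, chr11:11685003-11772926, plus strand, GRCm38) had 185 CPM in the lowest EV line, a median of 296 and 451 in the highest, against 219, 266 and 296 CPM in BCR-ABL1 lines. The lowest and the highest value of all 12 lines belonged to EV 2C and EV 2B, both of mouse 2, and the range of the BCR-ABL1 lines lay within that of the EV lines. Means were 302 ± 85.8 and 264 ± 30.5 CPM (SD, n = 6 each), and the log2 fold change was -0.19 (SE 0.18, FDR 1 by glmTreat and 0.357 against no change). An exact permutation test of mean log2 CPM, two-sided, gave p = 0.433.

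The wide spread of the Ikzf1 values in EV lines came from mouse 2. In mouse 1 the EV lines had 304, 308 and 287 CPM and the BCR-ABL1 lines 259, 219 and 241, without overlap and with a difference of -0.33 in mean log2 CPM. In mouse 2 the EV lines had 276, 451 and 185 CPM and the BCR-ABL1 lines 273, 296 and 295, with a difference of 0.02. The difference between the mice in the BCR-ABL1 effect, tested as an interaction in edgeR, was 0.25 on the log2 scale (FDR 0.701), and 16.7% of all tested genes passed that test. It moved with single lines, being 0.65 (FDR 0.0396) without EV 2B and -0.01 (FDR 0.981) without EV 2C. Gene counts do not separate the isoforms of Ikaros, of which the short ones lack the DNA-binding fingers.

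Aiolos was lower in every BCR-ABL1 line than in any EV line. Ikzf3 (ENSMUSG00000018168, chr11:98464902-98546031, minus strand) ranged from 125 over a median of 157 to 182 CPM in EV lines and from 75.1 over 102 to 108 CPM in BCR-ABL1 lines. The lowest EV line was EV 2C and the lowest BCR-ABL1 line was BCR-ABL1 2A. Means were 153 ± 21.9 and 98.3 ± 12.5 CPM (SD, n = 6 each), a fitted 1.55-fold difference with a log2 fold change of -0.64 (SE 0.12). This size barely exceeds the 1.5-fold bound, and glmTreat did not call it (FDR 0.500). Against no change the FDR was 0.000811. Exact permutation gave p = 0.00216 over all splits and p = 0.005 within mice, each the smallest that these splits can give.

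The Ikzf3 values did not overlap between the conditions in either mouse. In mouse 1 the EV lines had 164, 182 and 151 CPM and the BCR-ABL1 lines 108, 106 and 108. In mouse 2 they had 131, 164 and 125 CPM against 75.1, 95.2 and 98.1. The log2 differences were -0.62 and -0.64, and the interaction was -0.02 (FDR 0.972). In these bulk samples, fewer cells with the transcript and less transcript per cell cannot be told apart.

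Within each mouse, Aiolos made up less of the family relative to Ikaros in BCR-ABL1 lines. The ratio of Ikzf3 to Ikzf1, each per kilobase, was 0.346 to 0.390 in EV lines and 0.274 to 0.319 in BCR-ABL1 lines of mouse 1. In mouse 2 it was 0.240 to 0.446 and 0.181 to 0.219. Within each mouse the ranges were separate, whereas across the mice they were not, since the EV lines of mouse 2 began below the BCR-ABL1 lines of mouse 1. Of the summed RPKM of the 5 genes, Ikzf1 made up 65.6% on average in EV lines and 69.2% in BCR-ABL1 lines, Ikzf3 22.6% and 17.2%, and Ikzf5 11.7% and 13.5%. These shares are given as a description, without a test, and depend on the RPKM of Ikzf5 with the limit named above.

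**Figure D3:**
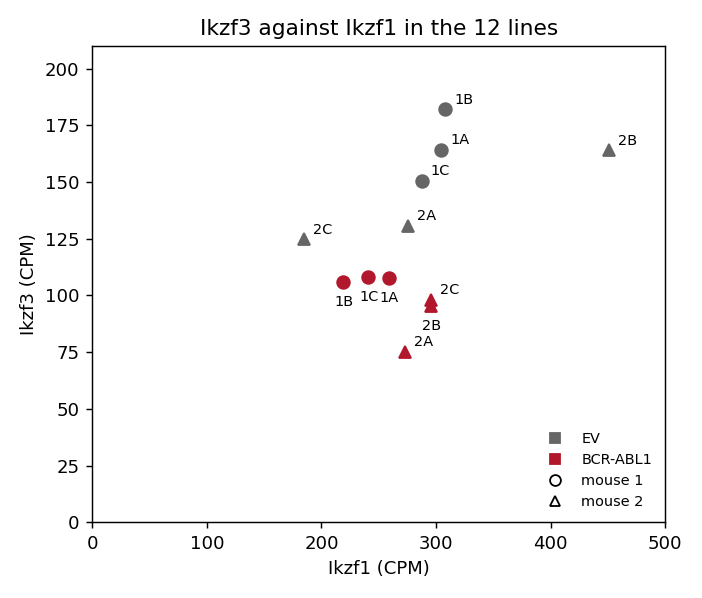
Ikzf3 CPM (vertical axis) against Ikzf1 CPM (horizontal axis) in each of the 12 lines, named by mouse and letter. Grey is EV, red BCR-ABL1, circles are mouse 1 and triangles mouse 2. The EV lines (125 to 182 CPM of Ikzf3) all lie above the BCR-ABL1 lines (75.1 to 108), while Ikzf1 spans 185 to 451 CPM in EV lines and 219 to 296 in BCR-ABL1 lines.

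Because members of a family can share reads, the coding sequences of GENCODE M21 were searched for stretches that 2 members have in common. The longest identical run in any of the 10 pairs was 26 bases, and the shortest of the 10 longest runs was 11 bases. A pair of members far apart in level, Ikzf1 and Ikzf4, shared a run of 24 bases at most, gactccacagatacagagagcaac, in exon 8 of Ikzf4 (chr10:128634420-128634443, minus strand) and in exon 9 of Ikzf1.

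Eos was close to undetected in EV lines and rose in BCR-ABL1 lines. Ikzf4 (ENSMUSG00000002578, chr10:128630843-128645991, minus strand) had 2, 0 and 0 counts in the EV lines of mouse 1 and 6, 3 and 3 in those of mouse 2, against 19, 11 and 16 and 21, 32 and 24 counts in the BCR-ABL1 lines. Counts of 3 or fewer were treated as no more than background, which leaves EV 2A as the only EV line above it. As CPM the EV lines had 0, a median of 0.0459 and 0.184, and the BCR-ABL1 lines 0.230, 0.384 and 0.498, so that the groups did not overlap.

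The fitted log2 fold change of Ikzf4 was 2.98 (7.88-fold, FDR 0.00986 by glmTreat), and at such counts it depends on the prior count. The SE of 0.42 belongs to the difference in mean log2 CPM with a prior count of 2, not to this fitted value. Exact permutation gave p = 0.00216, the smallest possible. A gene that passed the filter on low counts through its BCR-ABL1 lines alone can hardly give another value. Pooled over the lines, 14 counts in EV and 123 in BCR-ABL1 lines gave a ratio of 9.04 after scaling by depth (95% exact interval 5.19 to 17.0, counting error only). In mouse 1 the counts were 2 and 46, a ratio of 28.6 (interval 7.48 to 243). In mouse 2 they were 12 and 77, a ratio of 5.35 (interval 2.90 to 10.8), and the test on the lines of mouse 2 alone did not pass (FDR 0.0551). The difference between the mice was -2.21 on the log2 scale (unadjusted p = 0.0492 in edgeR, FDR 0.170), and without EV 1A it was -4.69 (FDR 0.0370). Its highest value per kilobase, 0.0831 RPKM in a BCR-ABL1 line, lay far below the lowest of Ikzf5, 8.08 RPKM.

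Pegasus showed the narrowest spread of the members relative to its mean level. Ikzf5 (ENSMUSG00000040167, chr7:131388652-131410521, minus strand) had 46.2, a median of 51.7 and 53.5 CPM in EV lines and 49.1, 50.1 and 52.7 CPM in BCR-ABL1 lines. The ranges overlapped almost fully, and the one line below the rest was EV 2C. Means were 51.1 ± 2.73 and 50.6 ± 1.71 CPM (SD, n = 6 each), with a log2 fold change of -0.01 (SE 0.04, FDR 1 by glmTreat and 0.849 against no change) and p = 0.766 by exact permutation. In mouse 1 the difference was -0.08 and in mouse 2 0.06, with an interaction of 0.14 (FDR 0.387).

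The locus of Ikzf5 is crowded. Its exons share 4652 bases with those of Pstk, which encodes a kinase for selenocysteine synthesis on the opposite strand, and the library kit keeps the strand, but the strand setting of the counting is not given in the sources used here. Without strand, reads of the 2 genes cannot be told apart. Pstk had 15.3 to 25.7 CPM in EV lines against 16.3 to 20.3 CPM in BCR-ABL1 lines (log2 fold change -0.08, FDR 1 by glmTreat).

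Acadsb, an acyl-CoA dehydrogenase gene, begins 79 bases from the start of Ikzf5 and points the other way. It had 12.7 to 19.3 CPM in the EV lines and 8.73 to 13.05 CPM in the BCR-ABL1 lines, with a narrow overlap. Its log2 fold change was -0.48 (FDR 1 by glmTreat, 0.00958 against no change). The 79 bases between the annotated starts (chr7:131410522-131410600, GRCm38) are shown because both genes are transcribed away from them, and are read on the strand of Ikzf5, with 60.8% G or C.
Ikzf5 to Acadsb: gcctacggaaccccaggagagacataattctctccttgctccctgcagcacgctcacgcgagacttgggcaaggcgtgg
The core letters of Ikaros binding sites, TGGGAA on either strand, do not occur in these 79 bases. RefSeq promoter windows (GRCm38, 250 bases before to 50 after a start) were matched for Ikzf1, with 2 windows, and Ikzf5, with 1. TGGGAA occurred in 0 of these 3 windows and in 25.6% of 32851 windows of all genes.

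Helios was not tested, having too few counts. Ikzf2 (ENSMUSG00000025997, chr1:69531214-69687245, minus strand) had 18 counts over the EV lines, 14 of them in EV 2A, 3 in EV 2B and 1 in EV 1C, and 1 count over the BCR-ABL1 lines, in BCR-ABL1 1A. The other 8 lines had 0, which at this depth allows for up to 3 counts. EV 2A, at 0.429 CPM, was therefore the only line above 3 counts. The nearest protein-coding genes on either side, Erbb4 and Spag16, had 12 and 13 counts in EV 2A, at most 5 in any other EV line and 0 in all BCR-ABL1 lines. The part that the wide low-level coverage of EV 2A has in its Ikzf2 and Ikzf4 counts was not tested. Without EV 2A, Ikzf4 had a log2 fold change of 3.66 (FDR 0.00164).

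Other members have neighbors with values of their own. On either side of Ikzf3, Grb7, a signaling adaptor gene 9528 bases away, rose from at most 1.53 CPM in EV lines to 2.42 to 9.79 CPM (log2 fold change 3.91, FDR 0.00868), and Zpbp2, 5065 bases away, was not called (-0.58, FDR 0.757). Within the span of Ikzf1 lies Gm11999 on the opposite strand, which shares no exon bases with it. It had 0.216 to 2.15 CPM in EV lines against 0.0627 to 0.213 CPM in BCR-ABL1 lines and fell (log2 fold change -2.96, FDR 0.00377 by glmTreat).

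Over the 12 lines the log2 CPM of Ikzf1 and Ikzf3 correlated with r = 0.39 (0.70 within EV and -0.46 within BCR-ABL1 lines), and that of Ikzf3 and Ikzf4 with r = -0.88. These values describe 12 points that share condition, mouse and library, and carry no test. Among tested genes whose mean log2 CPM reached 1, the 3 most like Ikzf1 were Syk (r = 0.95), the kinase downstream of the pre-B cell receptor, Sla (0.93) and Kdm2a (0.92). For Ikzf3 they were Gm44423, Gm10524 and Gm42571 (0.98 each), none with a known product. For Ikzf4 they were Pcdhgc3, Sgk3 and Lrp5 (0.97 each). For Ikzf5 the likeness was weaker, with Gm43200 (0.86), Gm4419 (0.86) and Ptbp2 (0.85). Because these genes were chosen by their likeness over both conditions, their own change between the conditions is no separate result.

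Over all lines, 1 gene among the partners of the Ikaros proteins was called, in NuRD. Of its 13 genes tested, 1 rose and 0 fell, where 5.98% of all tested genes rose and 6.46% fell. The median log2 fold change was 0.13 against -0.02 for all tested genes. The one that rose was Mta3, a NuRD subunit gene of low level here, from 0.0180 to 0.565 CPM in EV lines to 0.795 to 4.41 CPM (log2 fold change 3.03, FDR 0.0102 by glmTreat). Its effect was larger in mouse 2 than in mouse 1, with log2 differences of 4.94 and 1.24 (interaction FDR 0.00275 in edgeR). Chd4, a NuRD ATPase gene, had 498 to 587 CPM in EV lines against 552 to 626 CPM in BCR-ABL1 lines and was not called. Chd3, also of NuRD, was not called over all lines either, but its effect differed between the mice. Its log2 differences were 2.78 in mouse 1 and -0.36 in mouse 2 (interaction FDR 3.58e-05 in edgeR). In the lines of mouse 1 alone, Chd3 (FDR 6.08e-05) and Mbd2 (FDR 0.0348 by glmTreat) were called higher beside Mta3. In those of mouse 2 alone, Mta3 was the only NuRD gene called. Over all genes, 2500 of 15395 rose in mouse 1 alone and 590 of 15400 in mouse 2 alone.

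Of 5 genes of other corepressors and the SWI/SNF ATPase Smarca4, 0 were called, with a median of -0.24. As a measure for such short lists, 12.4% of all tested genes were called in either direction. Of 6 genes of casein kinase 2 and protein phosphatase 1, which phosphorylate and dephosphorylate Ikaros, 0 were called, with a median of 0.01. The effect differed between the mice for 2 of the 6, where 16.7% of all tested genes passed that test. Log2 differences in mouse 1 and mouse 2 were 0.21 and -0.26 for Ppp1ca (interaction FDR 0.0342 in edgeR). For Ppp1cb they were 0.54 and -0.16 (interaction FDR 0.0272 in edgeR). The catalytic subunit gene Csnk2a1 had 212 to 261 CPM in EV lines against 294 to 327 CPM in BCR-ABL1 lines (0.36, FDR 1 by glmTreat, 0.00049 against no change). These ranges did not overlap, which held for 25.6% of all tested genes.

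The cereblon ubiquitin ligase, through which lenalidomide leads to the destruction of Ikaros and Aiolos in human cells, had 0 of 5 genes called and a median of 0.13. Crbn itself had 42.8 to 64.6 CPM in EV lines against 35.3 to 42.7 CPM in BCR-ABL1 lines, just without overlap (-0.41, FDR 1 by glmTreat, 0.00479 against no change). Ddb1 and Cul4b lay higher in every BCR-ABL1 line (0.33 and 0.43) and Cul4a lower (-0.24), each with an FDR of 1 by glmTreat. Such a separation was found for 25.6% of all tested genes. In these 4 lists, an unadjusted p under 0.05 in glmTreat, the likelihood ratio fit and DESeq2 also called Mta3 alone of 29 tested genes. Against no change 7 of the 29 were higher and 6 lower, where that test called 48.5% of all tested genes.

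Of 14 genes that Ikaros is known to repress in the B lineage, 13 were tested, of which 6 rose and 0 fell, with a median log2 fold change of 0.73, where 5.98% of all tested genes rose. In the lines of mouse 1 alone, 7 of 12 tested genes rose and 1, Cd44, fell. In those of mouse 2 alone 3 of 13 rose, Ccnd3, Itga6 and Ptk2, and 0 fell. Over all genes, 2500 of 15395 rose and 1878 fell in mouse 1 alone. In mouse 2 alone 590 of 15400 rose and 387 fell. A filter on a CPM of 1 or more in 6 or more lines left 11 genes, of which 4 rose, where 598 of 11985 rose over all genes. Over all 12 lines, again 6 and 0 were called at an unadjusted p under 0.05 and by DESeq2. The list was written with earlier results of these data known. Cyclin D2 and D3, which drive pre-B cells into the cell cycle, both rose over the 12 lines. In the fits of single mice, Ccnd2 passed in mouse 1 (FDR 0.000113) but not in mouse 2 (FDR 0.0868 by glmTreat). Ccnd3 passed in mouse 2 (FDR 0.0312) but not in mouse 1 (FDR 0.0738 by glmTreat). Ccnd2 had 8.58 to 170 CPM in EV lines against 373 to 482 CPM in BCR-ABL1 lines (log2 fold change 3.05, FDR 0.0115 by glmTreat), and Ccnd3 had 519 to 656 and 912 to 1025 CPM (0.82, FDR 0.00833). Itga6, an integrin gene, lay between 27.0 and 83.2 CPM in EV lines and between 133 and 167 in BCR-ABL1 lines and rose (1.53, FDR 0.0145).

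Dntt, the terminal transferase of V(D)J joining, had 0.101 to 18.5 CPM in EV lines against 31.6 to 179 CPM in BCR-ABL1 lines (4.30, FDR 0.0407 by glmTreat). With mouse as a replicate block its FDR was 0.0544, and the call was lost in all but 2 of the 12 fits that each left out 1 line, including those without EV 2A and without EV 2C. Without EV 2A, without EV 2C and with the block, 5 of the 13 rose. Ptk2 and Ctnnd1, genes of adhesion, rose at low levels, from at most 0.184 and 0.215 CPM to 0.220 to 2.05 and 0.146 to 0.831 CPM (4.49, FDR 0.00574, and 3.25, FDR 0.0148). Like Ikzf4, Ptk2 passed the filter on low counts only through its BCR-ABL1 lines, so its rise follows in part from that filter. Cd44 was not called (-0.67, FDR 0.478), nor were Myc and Hes1.

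The surrogate light chain genes Igll1, Vpreb1 and Vpreb2, textbook targets of Ikaros, were not called over the 12 lines. In the lines of mouse 1 alone all 3 were called higher, where 2500 of all 15395 tested genes were. Their effects differed between the mice, with log2 differences from 1.19 (Igll1) to 3.11 (Vpreb2) in mouse 1 and of -0.44, -0.42 and -0.35 in mouse 2 (interaction FDR 0.00608, 0.000446 and 5.51e-05 in edgeR). Such a difference passed the test for 16.7% of all tested genes and for 6 of the 13 tested genes of the list. The others of these 6 were Ccnd2, Itga6 and Dntt. Their log2 differences were 5.17, 2.46 and 9.12 in mouse 1 against 2.50, 0.93 and 3.23 in mouse 2. The interaction FDR was 0.0103, 3.43e-05 and 0.00447 in edgeR.

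Of 6 genes that Ikaros is known to activate, 1 fell and 0 rose, with a median of 0.16, where 6.46% of all tested genes fell. The one that fell was Nr3c1, the glucocorticoid receptor gene, from 265 to 320 CPM in EV lines to 132 to 159 CPM in BCR-ABL1 lines (log2 fold change -1.0, FDR 0.00052 by glmTreat). Its effect was larger in mouse 1, with log2 differences of -1.23 and -0.77 (interaction FDR 0.00453 in edgeR), and in the lines of mouse 2 alone it was not called (FDR 0.141 by glmTreat). Cnr2, Blnk, Rag1, Rag2 and Txnip were not called over the 12 lines. Without EV 2C, Cnr2 was called higher. In the lines of mouse 1 alone Blnk, Cnr2 and Txnip were called higher, where 2500 of all 15395 tested genes were. In those of mouse 2 alone 0 of the 6 genes were called in either direction, where 590 of all 15400 rose and 387 fell. Igll1, Vpreb1, Blnk and Rag1 also stand among the B lineage markers. Of 11 B lineage transcription factors, 1 fell, Bach2 (133 to 478 against 77.9 to 122 CPM, -1.50, FDR 0.007), and 0 rose, also by DESeq2. A count of 1 in 11 is near the 6.46% of all tested genes that fell. In the lines of mouse 2 alone Bach2 was not called (FDR 0.11 by glmTreat), where 387 of all 15400 tested genes fell. At an unadjusted p under 0.05, 3 fell, with Lef1 and Irf4 beside Bach2. The median was -0.32. Pax5, which defines B lineage identity, had 369 to 569 CPM in EV lines against 310 to 436 CPM in BCR-ABL1 lines (-0.10, FDR 1).

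**Figure D4:**
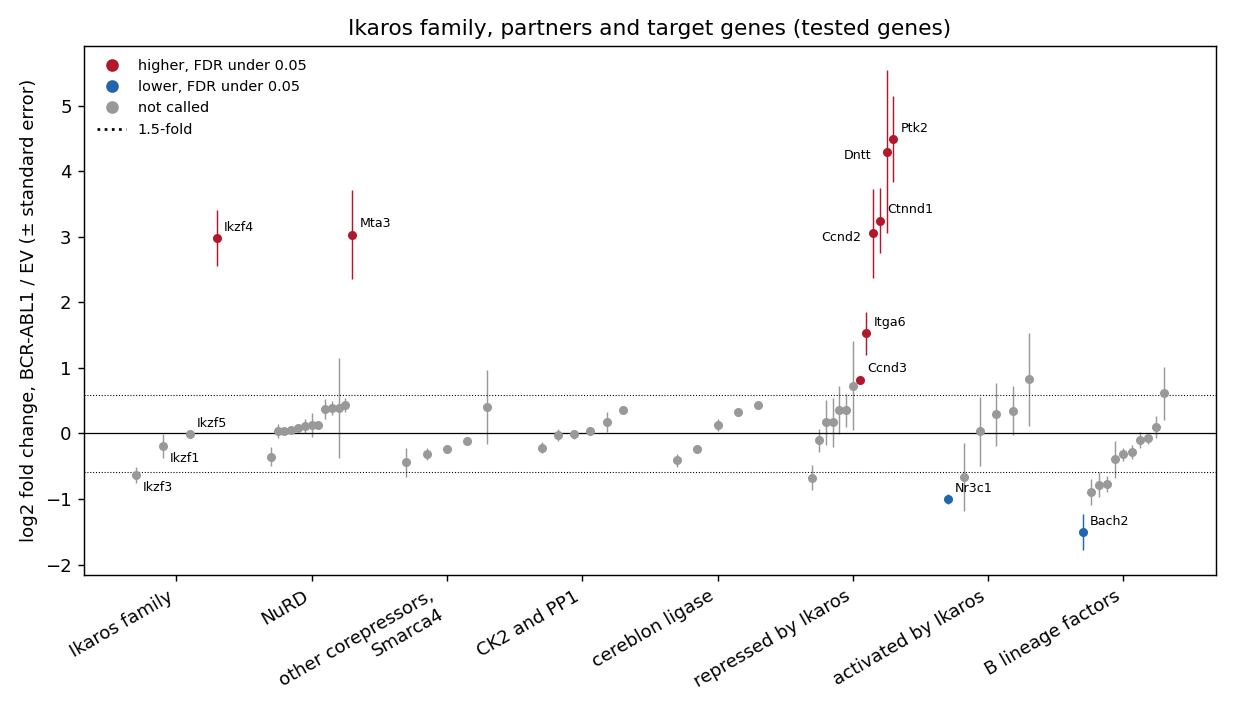
Log2 fold change of BCR-ABL1 against EV lines (vertical axis), 6 lines per condition. Shown is each tested gene of the Ikaros family, its partners, its known targets and B lineage factors (horizontal axis). Bars give the standard error of the difference in mean log2 CPM, not of the fitted fold change. Red genes rose and blue genes fell by glmTreat, grey genes were not called, and dotted lines mark 1.5-fold. Ikzf4 (2.98) and Mta3 (3.03) stand apart from the other members and partners, and 6 genes repressed by Ikaros rose.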

How the data were processed

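RNA of 12 lines was sequenced as stranded total RNA libraries. The authors counted reads per gene and deposited these whole-number counts without normalization or pooling. Per the submitters' processing notes, FastQC 0.11.5, Trimmomatic 0.36, TopHat2 2.1.1, Bowtie2 2.3.2, featureCounts 1.5.3, R 3.6.1 and edgeR 3.18.1 were used with GRCm38. Whether strand was used in counting is not given in the sources used here.

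Counts were analysed with R 4.3.3, edgeR 4.0.16, limma 3.58.1, DESeq2 1.42.0, Python 3.11.15, pandas 2.3.3, scipy 1.17.1 and matplotlib 3.10.9. Symbols, positions and sequences came from GENCODE M21 on GRCm38 (51633 of 51826 identifiers matched), and promoter windows from RefSeq. Genes passing filterByExpr (15038) were scaled by TMM, fitted with edgeR's robust quasi-likelihood model over the 12 lines and tested by glmTreat beyond 1.5-fold at a Benjamini-Hochberg FDR of 0.05. The effect was compared between mice by glmQLFTest of the interaction. The fits were tested on simulated data. Log2 CPM used a prior count of 2. Standard errors came from its spread between lines and are not those of the fitted fold changes. Exact permutation used all 924 splits of the lines, or the 400 within mice. Reads are not independent molecules, so that the floor of 3 counts and the intervals reflect counting error alone. Depth was 34791011 to 66011225 counts per line.

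Samples were grouped by their labels. EV and BCR-ABL1 lines share the numbers 1A to 2C, of which the digit is the mouse. After subtraction of condition means, an EV and a BCR-ABL1 line correlated with r of 0.0853 to 0.240 when they shared the mouse (0.0853 to 0.212 with the same letter too) and with r of -0.203 to -0.0636 otherwise, so the pairing is by mouse. With 2 mice, p-values measure the spread between lines. The genes named are the 5 members, called and defining genes of fixed lists, the 3 genes most correlated with each tested member, overlapping genes and the nearest coding genes. The members and lists were chosen with earlier results of these data known. Alternatives were DESeq2, RLE scaling, no filter, a filter that kept genes with a CPM of 1 or more in 6 or more lines, the likelihood ratio model, testing against no change, a replicate block by mouse or by line pair, each mouse alone, the longest transcript as length and leaving out each line. The counts for lists with the block, in each mouse alone, under the CPM filter or without EV 2A or EV 2C were added after seeing the data. The BCR-ABL1 transcript and protein sequences were not analysed here. Some sequences shared by members are not reported here.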

Additional observations from a re-analysis of the deposited data

Results flagged for a closer look

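The CPM of the 5 members and the ratio of Ikzf3 to Ikzf1 were searched in each condition for a line far from the others, by Dixon's test. Chance gives such a line in about 1 in 20 groups, but that rate is no measure for the 3 found here, which rest on counts at or near 0. Ikzf2 stood at 0.429 CPM in EV 2A, and at 0.0170 CPM, a single count, in BCR-ABL1 1A, where the 5 other lines had 0 and any count would stand apart. Ikzf4 stood at 0.184 CPM, or 6 counts, in EV 2A, with the 5 other EV lines at 3 counts or fewer. EV 2A also had at least 1 count for more genes than any other line, 69.7% of them, and the part this has in its values was not tested. For none of the 4 tested members did the BCR-ABL1 effect pass the test of a difference between the mice.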

How the results depend on the processing

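Ikzf4 stayed higher in BCR-ABL1 lines in each of the 21 alternatives that kept it, with log2 fold changes from 2.33 to 4.58, and was past the threshold in 20 of them. In the lines of mouse 2 alone it was 2.33 with an FDR of 0.0551, which leaves 0 members called higher, and a filter on a CPM of 1 or more in 6 or more lines removed Ikzf4 and again left 0. Leaving out each line gave 2.66 to 3.66 and 1 to 1 member called higher. Ikzf3 stayed lower in all 22 alternatives, between -0.69 and -0.58, and passed only the test against no change (-0.64, FDR 0.000811), where 1 member was called lower. Without single lines 0 to 0 members were. Ikzf1 ranged from -0.31 to -0.05 and never passed. Ikzf5 changed sign near 0, at 0.01 with RLE scaling (0.00973) and DESeq2 (0.0101), 0.04 without a filter (0.0350), 0.07 in mouse 2 (0.0719) and from -0.0379 to 0.0293 without single lines. With mouse as replicate block, which pairs the samples, 1123 genes rose and 1076 fell, and Ikzf1, Ikzf3, Ikzf4 and Ikzf5 had log2 fold changes of -0.20, -0.64, 3.07 and -0.01. Of the members and the genes of the lists, the block changed the call of Dntt alone, leaving 5 of 13 repressed genes higher.

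Differences between the mice turned to 0.06 for Ikzf3 without a filter (0.0641) and ran without single lines from -0.0890 to 0.116 for Ikzf3, from -0.00810 to 0.648 for Ikzf1, from -4.69 to -1.59 for Ikzf4 and from 0.09 to 0.18 for Ikzf5. Of all genes, 899 rose and 971 fell. Numbers moved by more than 1.5 times under that CPM filter (598 rose), in the test against no change (3386 and 3901), in mouse 1 alone (2500 and 1878) and in mouse 2 alone (590 and 387). Without single lines they were 802 to 1348 and 798 to 1433, both highest without EV 2C. In the lines of mouse 2 alone, called genes went from 6 to 3 higher among those repressed by Ikaros, from 1 to 0 lower among those activated, and from 1 to 0 lower among B lineage factors, and in mouse 1 alone 1 repressed gene was lower and 3 activated genes were higher. Of the genes activated by Ikaros, 0 to 1 were called higher without EV 2A or EV 2C, the one being Cnr2 without EV 2C. The causes were not tested. Depth limits Ikzf2, which had an FDR of 0.175 when fitted without a filter, and Ikzf4 in EV lines.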
